A study of Drosophila melanogaster with 3 samples.

Results

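The vacuolar proton pump (V-ATPase) genes of Drosophila melanogaster were examined for binding of Insensitive. All protein-coding genes whose annotated symbol begins with Vha were taken, which gave 33 of the 13945 protein-coding genes on the 6 chromosome arms. The remaining 13912 protein-coding genes served for comparison. The 33 genes cover 14 kinds of subunit, of which 9 are encoded by more than 1 gene. Binding had been mapped by chromatin immunoprecipitation and sequencing in mixed-sex embryos aged 0 to 24 h, of a transgenic line with GFP fused to the C terminus of the insv product. The fusion was precipitated through its GFP with an antibody, and the labels do not say whether untagged Insensitive was also present. There was 1 group of 3 biological replicates and no second condition. The labels do not say whether each replicate had its own collection of embryos. The whole organism was used over the whole of embryonic development, so a peak cannot be assigned to a tissue or a stage, and peak lists do not report on tissue markers.

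The V-ATPase couples ATP hydrolysis in a peripheral sector, V1, to proton transport through a membrane sector, V0. It acidifies lysosomes, endosomes and secretory vesicles, and in insect epithelia such as the Malpighian tubule it also sits in the plasma membrane, where it energises ion transport. Many V-ATPase subunits of Drosophila have several gene copies, some of them with expression restricted to the testis. Insensitive is a BEN-domain protein that binds DNA in a sequence-specific way and acts as a transcriptional co-repressor.

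Of the 33 Vha genes, 6 had a thresholded Insensitive peak with its summit within 1000 bp of a transcript start, a share of 18.2% (Wilson 95% interval 8.61 to 34.4%). Among the other protein-coding genes the share was 4.35% (605 of 13912, 4.02 to 4.70%). The 6 were Vha55, Vha36-1, Vha26 and Vha13, which encode the V1 subunits B, D, E and G, Vha100-2, which encodes the V0 subunit a, and VhaAC45, which encodes an accessory subunit. They held 7 distinct peaks, since Vha55 had 2. Peaks were ranked by signal among the 30000 regions called on the pooled replicates, and the thresholded peaks are identical to the top of that ranking. The signal of a region is the authors' own value on an unstated scale, and served only to describe and rank regions within a list. The intervals treat genes as independent and cover counting error only. With 1 group and a gene family chosen with earlier results known, the difference between the shares was not tested.

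Vha55 and Vha13 lie on the right arm of chromosome 3, as does Vha26. Vha55 (FBgn0005671, chr3R:12623762-12627829, minus strand) is the only gene of subunit B, the nucleotide-binding partner of the catalytic subunit A in the V1 head. Its stronger peak (chr3R:12626614-12626899) had rank 23 in the pooled list with a signal of 462.9, and only 27 protein-coding genes had a region of better rank near a start. The summit lay in an intron 956 bp downstream of the nearest of 3 transcript starts. Regions overlapping it had ranks 36, 29 and 21 of 30000 in replicates 1, 2 and 3, with signals of 173, 163 and 124. It thus stood among the 100 highest regions of every replicate. The second peak (chr3R:12627220-12627635) had rank 486 and a signal of 101.1, and its summit was also intronic, 273 bp downstream of the nearest start. Its ranks of 467, 387 and 609 in replicates 1, 2 and 3 went with signals of 44.8, 44.7 and 23.2. Vha13 (FBgn0283536, chr3R:19643018-19644386, minus strand) is the only gene of subunit G, which forms the peripheral stalks together with subunit E. Its peak (chr3R:19644050-19644465) had rank 245 and a signal of 164.1, with the summit in a coding exon 128 bp downstream of the start. The ranks in replicates 1, 2 and 3 were 311, 168 and 360, and the signals were 57.8, 74.8 and 30.9. Vha26 (FBgn0283535, chr3R:5591763-5595356, plus strand) is the only gene of subunit E. Its peak (chr3R:5591984-5592399) had rank 421 and a signal of 109.3, with an intronic summit 429 bp downstream of the start. The ranks were 665, 476 and 275 and the signals 36.5, 38.8 and 37.1 in replicates 1, 2 and 3. The replicate ranks of these 4 peaks thus all lay between 21 and 665. Vha26 had 2 further regions below the threshold, of rank 2185 in a coding exon of its neighbour noi and of rank 2830 in its own intron, and Vha55 had 2, of ranks 964 and 1356.

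The sequences around these 4 summits are shown because they carry the only matches among the 7 peaks to the motifs sought (capitals), next to 2 windows without a match. They were read from the RefSeq release 6 assembly, which is dm6, on the plus strand, up to 100 bases to each side of the summit, which is base 101 of each line. Bases annotated as UTR were left out. The Vha13 line covers chr3R:19644158-19644287 and the line of the second Vha55 peak chr3R:12627328-12627521. The line of the stronger Vha55 peak covers chr3R:12626645-12626845 and that of Vha26 chr3R:5592092-5592292.
Vha13: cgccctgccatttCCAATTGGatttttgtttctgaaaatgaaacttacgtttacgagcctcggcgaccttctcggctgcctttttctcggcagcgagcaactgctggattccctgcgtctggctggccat
Vha55 second peak: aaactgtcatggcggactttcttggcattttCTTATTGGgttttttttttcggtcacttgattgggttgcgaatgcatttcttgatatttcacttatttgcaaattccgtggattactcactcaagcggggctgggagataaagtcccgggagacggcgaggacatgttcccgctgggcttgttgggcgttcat
Vha55 stronger peak: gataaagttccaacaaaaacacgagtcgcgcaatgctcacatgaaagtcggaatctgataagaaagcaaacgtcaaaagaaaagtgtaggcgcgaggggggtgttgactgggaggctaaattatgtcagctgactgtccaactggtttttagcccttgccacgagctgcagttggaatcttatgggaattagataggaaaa
Vha26: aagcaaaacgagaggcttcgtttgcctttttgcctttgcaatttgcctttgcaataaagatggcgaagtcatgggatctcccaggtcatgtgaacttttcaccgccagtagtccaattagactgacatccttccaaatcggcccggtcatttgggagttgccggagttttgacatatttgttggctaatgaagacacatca

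In the Vha13 line, the capitals mark CCAATTGG, the palindrome known as the site of the BEN domain of Insensitive. It lay at chr3R:19644171-19644178 in an intron, with its middle 83.5 bp from the summit. In the line of the second Vha55 peak the capitals mark CCAATAAG, known from the related Elba complex, which reads CTTATTGG on the plus strand. It lay at chr3R:12627359-12627366, with its middle 65.5 bp from the summit. The summits of both peaks are midpoints of regions 416 bp long, so these distances are approximate. Each motif was sought on both strands within 100 bp of the summits. CCAATTGG was thus found at 1 of the 7 Vha peaks, against 98 of all thresholded peaks (13.4%) and 0.639% of the 29268 other pooled regions. CCAATAAG was also found at 1 of 7, against 57 of the thresholded peaks (7.79%) and 0.560%. No window of the 7 peaks held TATCGATA of the factor DREF, GGTCACAC of the factor M1BP, or CACGTG, the E-box of the Mitf/TFE family, which is known to act on V-ATPase and lysosomal genes. Over all thresholded peaks these were present in 3.55%, 3.14% and 2.19% of windows, and over the other pooled regions in 0.359%, 0.441% and 2.91%. CACGTG was thus less frequent in the thresholded peaks than in the other regions. Absence from a window says only that these letters are not in it. CAATCAGA was sought because an earlier analysis of these lists had it high among 8-letter words. It was in none of the 7, in 7.65% of all thresholded peaks and in 0.837% of the other pooled regions. GC content in these windows had a median of 44.8% over the 7 Vha peaks, with a range of 34.8 to 48.8%. Over all thresholded peaks the median was 39.8%, with a range of 23.4 to 66.2%.

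Vha36-1 (FBgn0022097, 2R 15541435 to 15542498, plus strand) encodes subunit D, part of the central shaft that turns within the V1 head. Its peak (2R 15541194 to 15541609) had rank 157 and a signal of 205.2, and the summit lay 33 bp upstream of the start, the shortest distance among the 6 genes. The ranks in replicates 1, 2 and 3 were 172, 181 and 200, with signals of 84.1, 72.3 and 45.0. A further thresholded peak (2R 15542423 to 15542838, rank 229, signal 169.4) had its summit 1196 bp downstream of the Vha36-1 start, just beyond the 1000 bp limit. It lay 30 bp from the start of eIF2Bgamma, which encodes a subunit of a translation initiation factor, and was not counted for Vha36-1. This uncounted peak held CAATCAGA within 100 bp of its summit. The paralogs Vha36-2 and Vha36-3 had no pooled region within 1000 bp of a start.

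Vha100-2 (FBgn0028670, 3R 18390323 to 18399169, minus strand) encodes 1 of 5 forms of subunit a, the V0 subunit that holds the path of protons beside the rotating ring. Its peak (3R 18396987 to 18397402) had rank 389 and a signal of 115.6. The ranks were 681, 320 and 362 in replicates 1, 2 and 3, and the signals 36.1, 50.01 and 30.8. The summit lay 267 bp upstream of the inner of 2 annotated starts, in an intron of the longer Vha100-2 transcript, and 200 bp from the start of Vti1b, a SNARE gene whose UTR it overlapped. Among the 7 peaks this was the only summit nearest to a start of another gene, and Vha100-2 was not counted when only the 5′ end of the gene record or only the nearest gene was used. Vha100-1 had a best rank of 6897, and Vha100-3, Vha100-4 and Vha100-5 had no pooled region.

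VhaAC45 (FBgn0262515, 2R 9207561 to 9209774, plus strand) encodes the accessory subunit Ac45, which in mammals assists the assembly and trafficking of the pump. It had the strongest Insensitive peak of the family (2R 9207206 to 9207543), with rank 9 in the pooled list and a signal of 668.7, and only 7 protein-coding genes had a region of better rank near a start. The overlapping regions had ranks 13, 8 and 8 in replicates 1, 2 and 3, and signals of 243, 254 and 183. The summit was intergenic, 204 bp upstream of the VhaAC45 start. The related VhaAC45RP had a best rank of 19424. Only VhaAC45 and Vha55 of the 33 Vha genes had a region among the 100 highest of the pooled list, against 111 of the 13912 other genes.

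All 6 genes with a peak had a start beside that of a gene transcribed the other way. At Vha100-2 it was the inner start only, and the Vti1b start lay within the longer Vha100-2 transcript. Each had a head-to-head neighbour, meaning another protein-coding gene on the opposite strand that starts within 1000 bp and points away. The neighbours were Snx3 (sorting nexin of endosomal retrieval) at Vha55, CG8187 at Vha36-1, noi (a splicing factor subunit) at Vha26, Nup58 (a nucleoporin) at Vha13, Vti1b at Vha100-2 and Gnptab (in mammals, part of an enzyme that tags lysosomal hydrolases) at VhaAC45. The distances between the paired starts were 202, 72, 304, 640, 67 and 437 bp in the same order. Each of the 6 neighbours also had a thresholded summit within 1000 bp, because the peaks were shared, and counts among the 605 other genes. The Snx3 start was 603 bp from the second Vha55 summit, and the Gnptab start 233 bp from the VhaAC45 summit. Of the 14 Vha genes with a head-to-head neighbour, 6 (42.9%, Wilson 95% interval 21.4 to 67.4%) had a thresholded peak, against 353 of 5038 other genes with one (7.01%). Of the 19 Vha genes without, none had a peak, for which the Wilson interval reaches 16.8%, against 252 of 8874 other genes (2.84%). Head-to-head neighbours were present at 42.4% of the Vha genes (14 of 33) and 36.2% of the other genes (5038 of 13912), and at 353 of the 605 other genes with a peak (58.3%). The stronger Vha55 peak was not shared by this rule, since its summit lay 1286 bp from the Snx3 start. Peaks shared by such pairs cannot be assigned to either gene from their position alone.

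**Figure D1:**
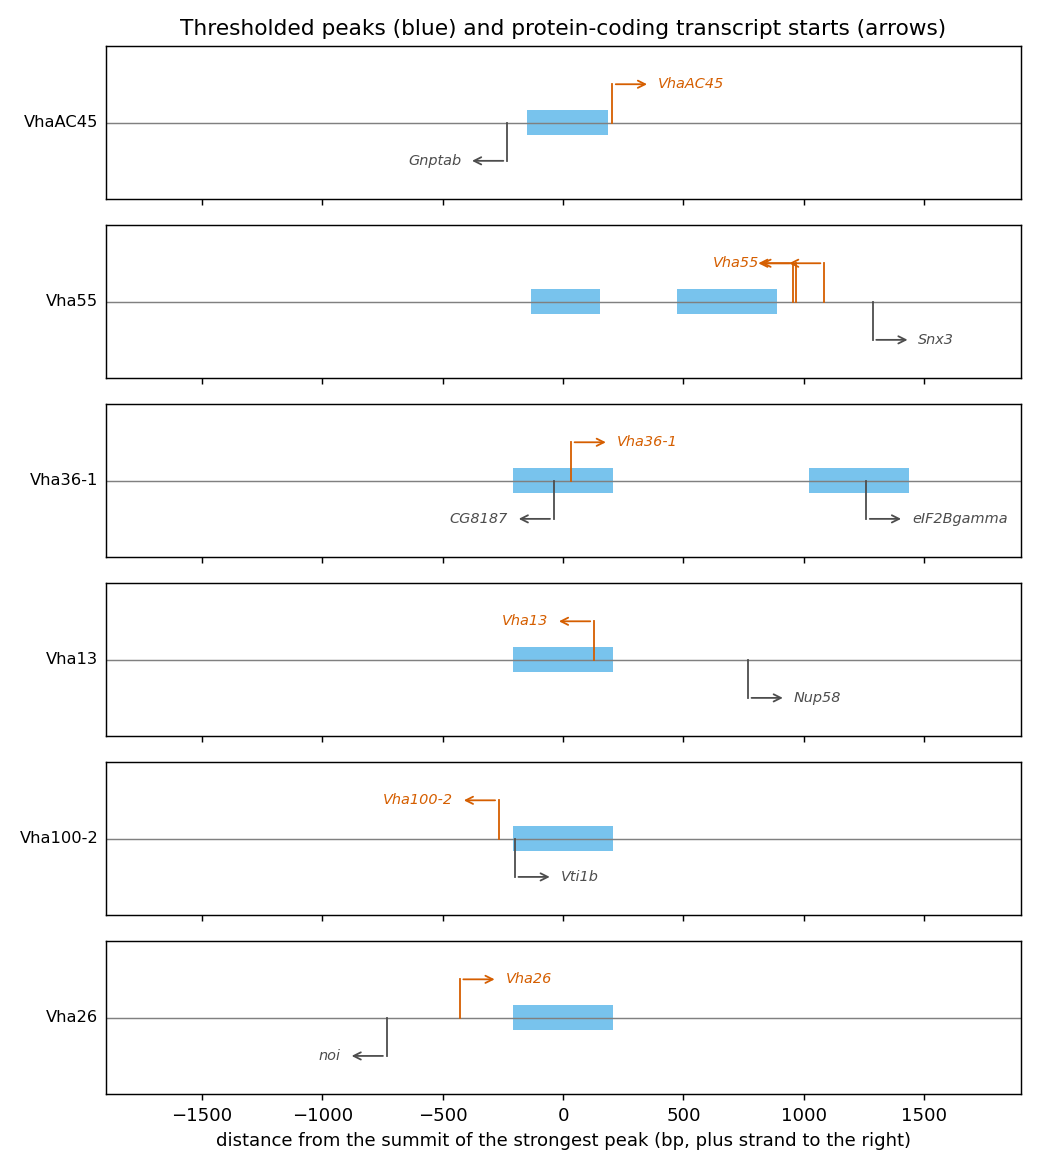
Position of thresholded peaks (blue boxes) and protein-coding transcript starts (arrows in the direction of transcription, Vha genes above the line and other genes below it) at the 6 Vha genes with a peak, as distance in bp from the summit of the strongest peak. Every locus has a start on each strand, the Vha36-1 and CG8187 starts lie 33 and 39 bp to either side of the summit, and the summit of the strongest Vha55 peak lies 956, 969 and 1084 bp downstream of the 3 Vha55 starts.

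Genes with more annotated starts have more chances of a nearby summit, and the counts were therefore also given by number of starts. Of the Vha genes with 1 start, 4 of 25 (16%) had a peak, against 273 of 10221 other genes (2.67%). Of those with 2 starts it was 1 of 6, against 174 of 2560 (6.80%), and of those with 3 or more 1 of 2, against 158 of 1131 (14.0%). The summit of the strongest peak lay a median of 235.5 bp from the nearest start of the 6 Vha genes, with a range of 33 to 956 bp, and a median of 254 bp for the 605 other genes. For 5 of the 7 Vha peaks the deposited summit is the midpoint of a region 416 bp long, the exceptions being the VhaAC45 peak and the stronger Vha55 peak, so these distances are approximate.

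Below the threshold, 4 further Vha genes had a region of rank 3000 or better. Together with the 6 they made 10 of 33 (30.3%), against 2065 of 13912 other genes (14.8%). Vha16-1, the widely used form of subunit c, which forms the proton-carrying ring, came closest, with rank 955 and a signal of 64.7, while the weakest thresholded peak had 75.0. This region (2R 6632497 to 6632912), with an intronic summit 321 bp upstream of a start, held CCAATTGG. Its ranks were 767 in replicate 1, 23959 in replicate 2 and 680 in replicate 3, so that replicate 2 stood apart from the other replicates. A second Vha16-1 region of rank 2477 held the E-box CACGTG, in the longer form TCACGTGA. Over all pooled regions below the threshold, CACGTG was in 2.91% of windows and TCACGTGA in 0.137%.

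Vha44, the only gene of subunit C, which joins the peripheral stalks to V0, had rank 1224 and a signal of 57.6 at an intronic summit 241 bp downstream of a start, and the regions overlapping it had ranks of 1000, 9761 and 2620 in replicates 1, 2 and 3. Another region near a Vha44 start had rank 5535 in replicate 2. Its head-to-head neighbour is Hmgs, of the mevalonate pathway, 123 bp away. VhaM9.7-a, of the small V0 subunit e, had rank 1631, with overlapping regions of rank 20461, 756 and 10360 in the replicates and another near its start of rank 19354 in replicate 1. VhaPPA1-1, of the ring subunit c″, had rank 1988, with overlapping regions of rank 714, 15455 and 18297. The regions at Vha16-1 and Vha44 thus ranked far lower in replicate 2 than in the others. That at VhaM9.7-a ranked high in replicate 2 only, and that at VhaPPA1-1 in replicate 1 only. Thresholded peaks had passed a reproducibility analysis on these replicates, so the replicate ranks of these genes cannot be set against those of the 6 genes with a peak.

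The remaining genes with a pooled region ranked lower. VhaAC39-1 of subunit d, which links the ring to the central shaft, had rank 3431, Vha16-3 of subunit c 3856 and VhaSFD, the only gene of the regulatory subunit H, 4758. Vha14-1 of the shaft subunit F had rank 6140, Vha16-5 7803, VhaAC39-2 9443, Vha16-2 23578 and Vha14-2 24312. No pooled region lay within 1000 bp of a start of the other 13 Vha genes. They included every gene of the catalytic subunit A, namely Vha68-1, Vha68-2 and Vha68-3. Vha68-2, which has 5 annotated starts, had no region in the pooled list or in any replicate, and its nearest pooled summit was 11555 bp away. Vha100-5 was the only other gene without a region in any of the 4 lists. VhaM9.7-b had none in the pooled list but rank 1261 in replicate 3. A region of any rank was found at 20 of 33 Vha genes (60.6%), against 7994 of 13912 other genes (57.5%), a share near the background, so the shares lay further apart in the upper ranks than over the whole list. The median best rank was 2709.5 in the 20 Vha genes, with a range of 9 to 24312, and 7986 in the 7994 other genes. The Vha median depended on the setting. It was 1224 with summits within 500 bp, 3856 within 2000 bp, and 4014.75 to 6516 as the mean of the medians of the replicate lists with 1 left out. The distance also changes which genes have a region. Medians of the other genes are not given for these settings, so the gap between the groups under them is not known.

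**Figure D2:**
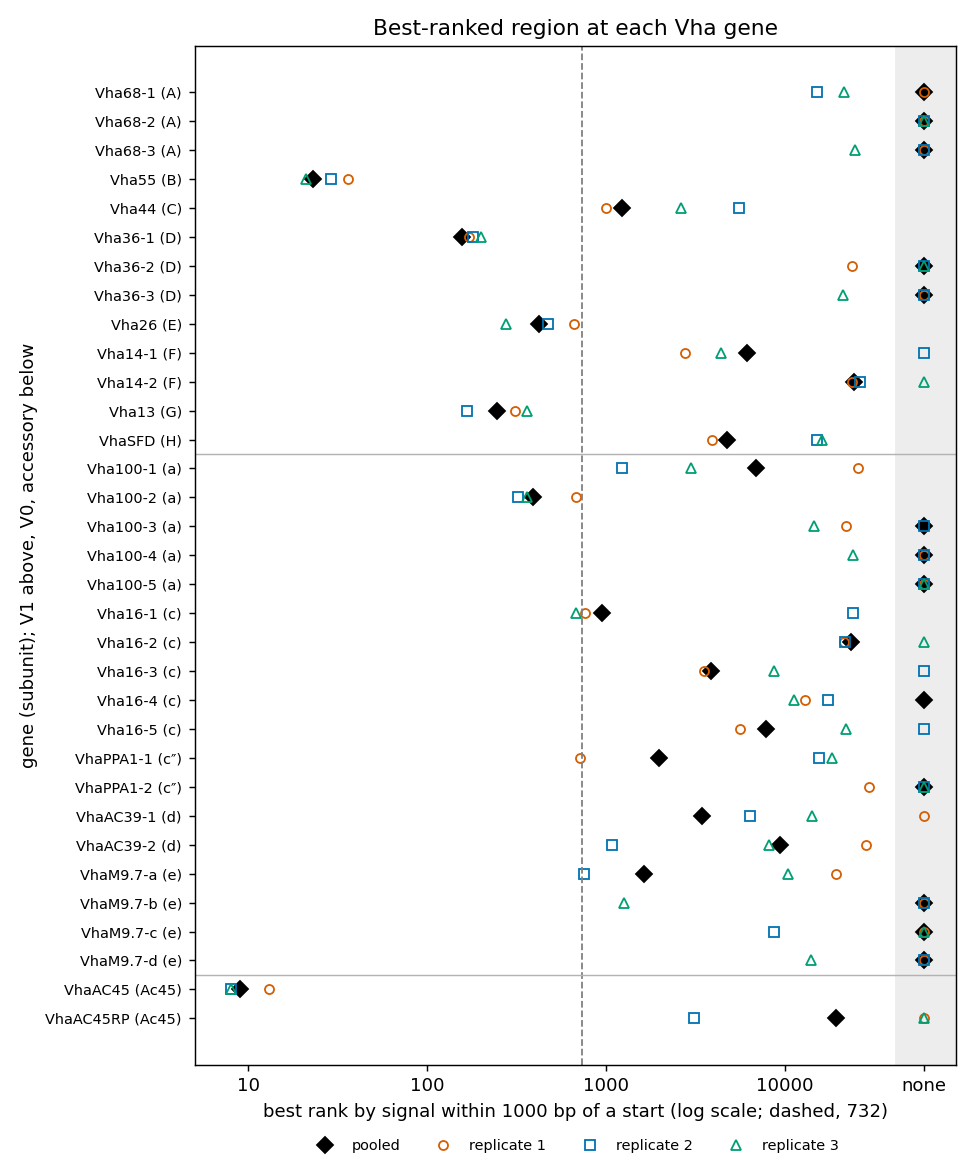
Best rank by signal (log scale) of any region within 1000 bp of a start for each of the 33 Vha genes, in the pooled list (diamonds) and in replicates 1 (circles), 2 (squares) and 3 (triangles). Genes run from V1 at the top through V0 to the accessory subunits, the shaded column marks lists without a region, and the dashed line is the last rank of the thresholded list. The 6 genes with a thresholded peak lie left of the line in all 4 lists, and Vha16-1 and VhaPPA1-1 cross it in 1 replicate each.

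**Figure D3:**
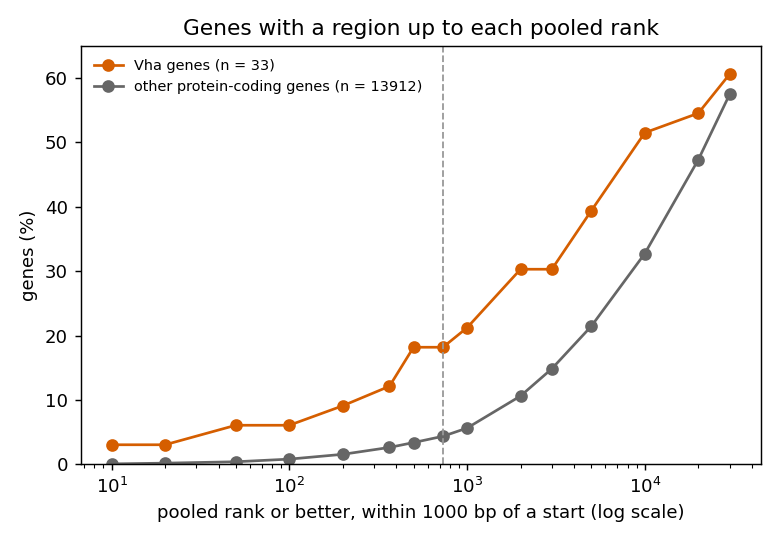
Share of the Vha genes (orange, n = 33) and of the other protein-coding genes (grey, n = 13912) with a region within 1000 bp of a start at a given pooled rank or better (log scale; the dashed line is the last rank of the thresholded list). The curves stand at 18.2% and 4.35% at that line and at 60.6% and 57.5% over all 30000 regions.

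The replicate lists, each ranked by the authors on its own, gave near-equal counts. In each replicate, as many of the highest regions were taken as there are thresholded peaks. Of the Vha genes, 7 had such a region in replicate 1 (21.2%), against 4.59% of the other genes. Replicate 2 gave 6 (18.2%), against 4.38%, and replicate 3 gave 7 (21.2%), against 4.88%. The mean was 6.67 ± 0.577 Vha genes (SD, n = 3), or 20.2 ± 1.75% of the family, against 4.62 ± 0.249% of the other genes. The 6 genes with a thresholded peak had such a region in every replicate, and the seventh gene was VhaPPA1-1 in replicate 1 and Vha16-1 in replicate 3. Of the other genes, 394 of 13912 had one in every replicate. All 7 Vha peaks were overlapped by 1 of the 1000 highest regions of each replicate. By the same rule, 428 of the 605 other genes with a peak kept one. Because the replicates entered the pool, this recovery is not independent of how the peaks were chosen. The median best rank of the Vha genes was 3719.5, 4310 and 8722 in replicates 1, 2 and 3, against 8611, 8529 and 8821 for the other genes, so the medians lay close together in replicate 3.

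By sector, peaks were found at 4 of the 13 V1 genes (30.8%, Wilson 95% interval 12.7 to 57.6%), at 1 of the 18 V0 genes (5.56%, 0.988 to 25.8%) and at 1 of the 2 accessory genes. The share over the other protein-coding genes was 4.35%, and that of V0 lay near it. The intervals of V1 and V0 overlap, and their difference was not tested. Counted by subunit, 4 of 8 V1 subunits and 1 of 5 V0 subunits had a gene with a peak. No share over other genes is available for counts by subunit. Subunits encoded by 1 gene had a peak in 3 of 5 cases (Vha55, Vha26 and Vha13, but not Vha44 or VhaSFD), while 3 of the 28 genes of the other subunits did (10.7%, 3.71 to 27.2%). A set of 13 genes is known from background to make up the pump of epithelial plasma membranes: Vha68-2, Vha55, Vha44, Vha36-1, Vha26, Vha14-1, Vha13, VhaSFD, Vha100-2, Vha16-1, VhaPPA1-1, VhaAC39-1 and VhaM9.7-b. Of this set 5 had a peak (38.5%, 17.7 to 64.5%), against 1 of the 20 Vha genes outside it (5.00%, 0.888 to 23.6%), VhaAC45. The share outside the set also lay near the 4.35% of the other protein-coding genes. Under the stricter threshold 3 of the set had a peak. The set includes all 5 genes that are alone in their subunit, so these divisions of the family overlap. Head-to-head neighbours were also more frequent in V1 than in V0, and in the set than outside it. Every Vha gene with a peak had such a neighbour, so class and neighbour cannot be told apart here. The median pooled rank was 955 in the set and 7803 outside it, over the 11 and 9 genes with a region. In 6 of the 8 subunits with several genes and a member in the set, that member ranked best of its paralogs in the pooled list. The exceptions were subunit A, without any pooled region, and subunit e, where VhaM9.7-a ranked above VhaM9.7-b. In every replicate this held for Vha36-1, Vha100-2 and VhaPPA1-1 only. VhaAC39-2 ranked above VhaAC39-1 in all 3 (28250 against no region, 1081 against 6416, 8192 against 14112). In replicate 2, Vha16-4 (17449) and Vha16-2 (21674) ranked above Vha16-1 (23959), and Vha14-2 but not Vha14-1 had a region. In replicate 3, VhaM9.7-b (1261) ranked above VhaM9.7-a (10360).

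**Figure D4:**
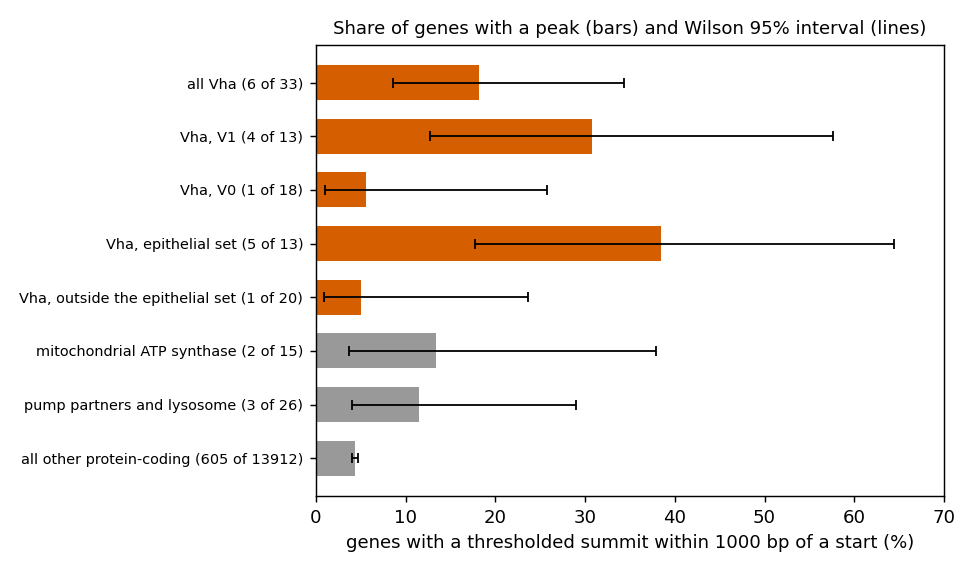
Share of genes (bars, in %) with a thresholded summit within 1000 bp of a start, with Wilson 95% intervals (lines), for the Vha genes and groups of them (orange) and for related lists and all other protein-coding genes (grey). The bars stand at 30.8% for V1, 5.56% for V0, 38.5% for the epithelial set and 4.35% for all other protein-coding genes, and the intervals of the small groups are wide. These differences were not tested.

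Promoters of the Vha genes, taken from 250 bp before to 50 bp after the gene's 5′ end in the release 6 assembly, were searched for the same motifs. CCAATTGG and CCAATAAG were in none of the 33, against 0.963% and 0.970% of the promoters of other genes. TATCGATA was in 2 (Vha55 and VhaSFD, 6.06%), against 9.37%, and GGTCACAC in 4 (Vha100-1, Vha14-1, Vha26 and Vha68-2, 12.1%), against 7.70%. CACGTG was in 3 (Vha44, VhaAC45RP and VhaM9.7-d, 9.09%), against 4.23%. Of these genes Vha55 and Vha26 had a thresholded peak. The Vha44 promoter held the longer TCACGTGA (1 of 33, 3.03%), against 0.165%. All motifs were sought on both strands, and each TCACGTGA is also counted as a CACGTG.

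Among 26 other genes of pump assembly, lysosomal function and its control by Tor, 3 had a thresholded peak (11.5%, Wilson 95% interval 4.003 to 29.0%), against the 4.35% given above. Rbcn-3A, which encodes a rabconnectin that promotes assembly of the pump, had an intronic peak of rank 115 with a signal of 252.6, 358 bp downstream of its start, and ranks of 114, 107 and 125 in replicates 1, 2 and 3. Vps33B, of endosomal trafficking, had rank 284 with 251, 433 and 224, and mtd, a TLDc-domain gene, had rank 681 with 1057, 906 and 2693. The mtd gene has 11 annotated starts, and of other genes with 3 or more starts 14.0% had a peak. The list count was 2, without mtd, under the stricter threshold and with the gene's 5′ end only. That held when each peak had to overlap 1 of the 1000 highest regions of every replicate, or of those kept with 1 left out. Rbcn-3B had a best rank of 4250, and Mitf had no pooled region. Of 15 genes of the mitochondrial ATP synthase, the rotary enzyme related to the V-ATPase, 2 had a peak (13.3%, 3.74 to 37.9%), with ATPsynF at rank 19 and ATPsyndelta at rank 297. Both of these summits were nearest to a start of another gene, CG3548 and Ypel. Of 4 sodium pump genes, nrv1 had a peak of rank 373, with ranks of 249, 502 and 6016 in replicates 1, 2 and 3. Because it ranked below the 1000 highest regions of replicate 3, nrv1 was not counted with replicate 1 or replicate 2 left out. ATP6AP2, an accessory V-ATPase subunit gene formerly called VhaM8.9 and so outside the symbol rule, had a best rank of 2591 and no peak. The median best pooled rank was 6704.5 in the assembly and lysosome list and 1620.5 in the ATP synthase list, over the genes with a region.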

How the data were processed

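The authors deposited, for dm6 and dm3, lists of 30000 regions (peaks and background) for each of 3 replicates and for their pooled alignments, and a thresholded list of peaks that passed a reproducibility analysis (irreproducible discovery rate). Per the deposited text lists, calling also used a control library, which was not analysed here. Caller, aligner, versions and threshold are not given in the sources used, and the depth behind each region is unknown. The signal values were deposited by the authors and were used only to rank and describe regions within a list. The thresholded list holds 732 peaks, identical to the top 732 pooled regions. Of their summits, read from the deposited offsets, 610 were simply the midpoint of a region, and the median region spanned 416 bp. Only the dm6 lists were used. In replicate lists the 732 highest regions were taken for comparison, and the stricter threshold kept the upper 366 peaks.

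Transcript starts and gene symbols came from Ensembl release 115 (BDGP 6.54), and bases from the RefSeq release 6 assembly, the same build. Genes with a summit at most 1000 bp from any protein-coding transcript start were counted. A region was matched to a replicate by the best-ranked region overlapping it by at least 1 bp. Shares carry Wilson 95% intervals. Members, lists and motifs were chosen with earlier results of these data known, so no test was made over them. The genes named were every Vha gene with a thresholded peak or a pooled rank of 3000 or better, thresholded summits 1000 to 2000 bp away, their neighbours, and list genes with a peak. Remaining Vha genes are given by rank, and Rbcn-3B, Mitf and ATP6AP2 were named after their values were seen. Of the list symbols, Tor was matched through its newer symbol mTor and VhaM8.9 through ATP6AP2. The counting was tested on simulated data. Python 3.11.15, NumPy 2.4.6, pandas 2.3.3, SciPy 1.17.1 and matplotlib 3.10.9 were used. Alternatives were other distances, thresholds, start definitions, replicates left out, and motif windows. A peak was taken as found in all 3 replicates when 1 of the 1000 highest regions of each overlapped it. With a replicate left out, counts of genes with a peak used the same peaks and asked this of the remaining replicates only. Peak calling was not repeated.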

Additional observations from a re-analysis of the deposited data

How the results depend on the processing

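The count of Vha genes with a peak was 6 with summits within 500 or 2000 bp, with any part of the peak within 1000 bp, with peaks found in all 3 replicates, with any replicate left out, and with only the strongest of close peaks, an alternative chosen after seeing the data. It was 4 under a stricter threshold, which kept the stronger peaks by signal (Vha13, Vha36-1, Vha55 and VhaAC45), and 5, without Vha100-2, with the gene's 5′ end only or with the nearest gene only, the last also chosen after seeing the data. The share of other genes lay between 2.62% and 5.58%, with 364 genes under the stricter threshold and 453 (3.26%) with the nearest gene only. With peaks found in all 3 replicates it was 3.08% (428 genes). The V0 count was 0 under the stricter threshold and with the 5′ end only, the epithelial set had 3 under the stricter threshold, and the ATP synthase list had 1 within 500 bp. The assembly and lysosome list had 2, without mtd, under the stricter threshold, with peaks found in all 3 replicates, with any 1 replicate left out and with the 5′ end only. The sodium pump list had 0 under the stricter threshold and with peaks found in all 3 replicates, and 0 to 1 with a replicate left out. The median best rank, taken from the replicate lists with 1 left out, was 4014.75 to 6516. Vha genes per replicate averaged 5 with as many regions as the stricter threshold kept and 7.67 with the 1000 highest. The counts of CCAATTGG and of CCAATAAG were 0 each within 50 bp of the summit, which at the peaks concerned is only a region midpoint. Stricter thresholds and smaller windows leave fewer peaks or bases by construction.

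No paired analysis was possible because there was only 1 group. Depth limits these results in ways that cannot be stated, since it is unknown. With 33 genes and 7 peaks the shares are imprecise, neighbouring genes share peaks, and a region absent from a list is not shown to be unbound.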
